A study of Mus musculus with 6 samples.

Results

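The 10 genes described here encode the mTOR kinase (*Mtor*), its complex partners (*Mlst8*, *Rptor*, *Rictor*, *Akt1s1* and *Deptor*), the upstream switch formed by the tuberous sclerosis proteins and RHEB (*Tsc1*, *Tsc2* and *Rheb*), and a direct substrate, the translation repressor 4E-BP1 (*Eif4ebp1*). They were taken by gene symbol from the deposited expression table. All 10 were found among its 46959 rows, each in a single row, and all 10 were among the 12955 genes expressed highly enough to be tested. They are the named parts of a known pathway, and no measured value enters the rule that picks them.

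RNA was sequenced from haematopoietic stem cells (HSCs) of the bone marrow of 8-week-old mice, in 3 control and 3 MaeaCsf1r-Cre libraries of about 2000 sorted cells each. MaeaCsf1r-Cre mice lack *Maea*, a subunit of an E3 ubiquitin ligase, in cells in which the Csf1r-iCre transgene has been active, and the controls were littermates labelled only as control. Csf1r-iCre is best known as a driver for macrophages and related phagocytes and also recombines in HSCs, so the deletion is not limited to HSCs in these animals. Each library pooled cells of a pair of mice. The values are read counts scaled to a common library size (CPM), so each is a share of its library's RNA. They do not show how much RNA a cell holds, nor protein or kinase activity.

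mTOR is a kinase that couples growth factors, amino acids and energy to protein synthesis, and it works in 2 assemblies that share mTOR and MLST8. mTORC1 is defined by raptor (*Rptor*), also holds the inhibitory proteins PRAS40 (*Akt1s1*) and DEPTOR, and phosphorylates 4E-BP1 and the S6 kinases. mTORC2 is defined by rictor, and its best known substrate is AKT. TSC1 and TSC2 together switch off the small GTPase RHEB, which activates mTORC1, and loss of *Tsc1* is known to drive HSCs out of quiescence. The study followed mTOR in *Maea*-deficient HSCs, and the comparison here asks whether the transcripts that encode this machinery differed between the genotypes.

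The libraries rested on 32923000 to 39558000 reads in control and 44096000 to 60867000 in MaeaCsf1r-Cre, and even the lowest member of a library was carried by 630 to 1320 reads, which is a counting error of 2.75% to 3.98%. For most members this was below the spread between libraries of a group. *Maea* was measured at 108 to 123 CPM in control and 76.9 to 101 CPM in MaeaCsf1r-Cre libraries, without overlap, for the whole gene and not for the deleted exons alone. All 8 HSC markers on the list passed the filter, with a summed level of 981 to 1540 CPM in control and 668 to 1227 CPM in MaeaCsf1r-Cre. By mean 6 of the 8 were lower in MaeaCsf1r-Cre and 2 higher. At an unadjusted p under 0.05 limma found 0 of the 8, beside 3.99% of all genes tested. When the replicate number was a block it found 7 (6 lower, 1 higher), 87.5% beside 13.9% of all genes. The summed level of 10 macrophage markers was 13.7 to 62.5 CPM in control and 0.590 to 44.1 CPM in MaeaCsf1r-Cre. The 6 of them that passed the filter were all lower by mean. Of these, 4 had an unadjusted p under 0.05 in limma, 66.7% beside 3.99% of all genes, and 0 passed the adjusted threshold. The 4 were *C1qa*, *C1qb*, *C1qc* and *Spic*. The 66.7% cannot be set against the 3.99%, since the C1q genes entered the test through the control libraries alone. The complement genes *C1qb*, at 6.05 ± 2.66 against 0.169 ± 0.264 CPM, and *C1qc*, at 5.56 ± 2.78 against 0.0863 ± 0.101 CPM (SD, n = 3 per genotype), were near absent in MaeaCsf1r-Cre and are named after their values were seen. A low value in MaeaCsf1r-Cre was thus built into the selection of both, as of *C1qa*. Others on the list were not absent: *Vcam1* and *Mrc1* were at 30.0 and 10.8 CPM in MaeaCsf1r-Cre replicate 3. In control replicate 3 they were at 26.7 and 9.93 CPM, and in the other 2 same-numbered pairs MaeaCsf1r-Cre was lower. The summed level of 6 genes of dividing cells overlapped, 815 to 1071 against 814 to 1234 CPM. By mean all 6 were higher in MaeaCsf1r-Cre, as were 5060 of the 12955 genes tested. In limma 0 of the 6 had an unadjusted p under 0.05. With the block 1 did (*Mki67*, higher, named after its values were seen), 16.7% beside 13.9% of all genes. The part of these differences in cell makeup in the values of the mTOR genes was not tested. In bulk RNA, fewer cells of a type and less RNA per cell cannot be told apart.

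The members differed far more from each other than between genotypes. To compare genes, CPM was divided by the length of the merged exons in kb, and the mean was taken over the 6 libraries. *Eif4ebp1* stood highest at 51.4 ± 7.98 CPM per kb (SD, n = 6). It was followed by *Akt1s1* at 10.5 ± 0.633 CPM per kb and *Rheb* at 10.4 ± 0.935 CPM per kb, whose ranges over the libraries overlapped. Thus the substrate, an mTORC1 inhibitor and the activating GTPase had the 3 highest mean levels. *Tsc2* at 8.01 ± 0.984 CPM per kb and *Mlst8* at 7.54 ± 1.18 CPM per kb came next and overlapped each other. *Mtor* itself stood at 4.76 ± 0.470 CPM per kb, below every library of *Mlst8* and above every library of the 4 members under it. Those 4 were *Deptor* at 2.83 ± 0.603, *Tsc1* at 2.70 ± 0.574, *Rptor* at 1.97 ± 0.238 and *Rictor* at 1.94 ± 0.315 CPM per kb, each overlapping its neighbour. The scaffold of each complex was therefore listed below the kinase that both complexes share, and *Tsc1* below its partner *Tsc2*. Between neighbours in this order, the ranges of the 6 libraries were apart only for *Eif4ebp1* and *Akt1s1*, *Rheb* and *Tsc2*, *Mlst8* and *Mtor*, and *Mtor* and *Deptor*. *Mlst8*, at up to 9.29 CPM per kb, still reached above the lowest library of *Rheb* at 9.14 CPM per kb. When the longest transcript was used as the length, 4 of the 10 genes kept their place and *Deptor* moved to place 10. *Mtor* then stood at 5.62 ± 0.555 CPM per kb and was no longer apart from all members under it. Its range overlapped those of *Tsc1* at 4.15 ± 0.882 and *Rptor* at 4.03 ± 0.486 CPM per kb.

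**Figure D1:**
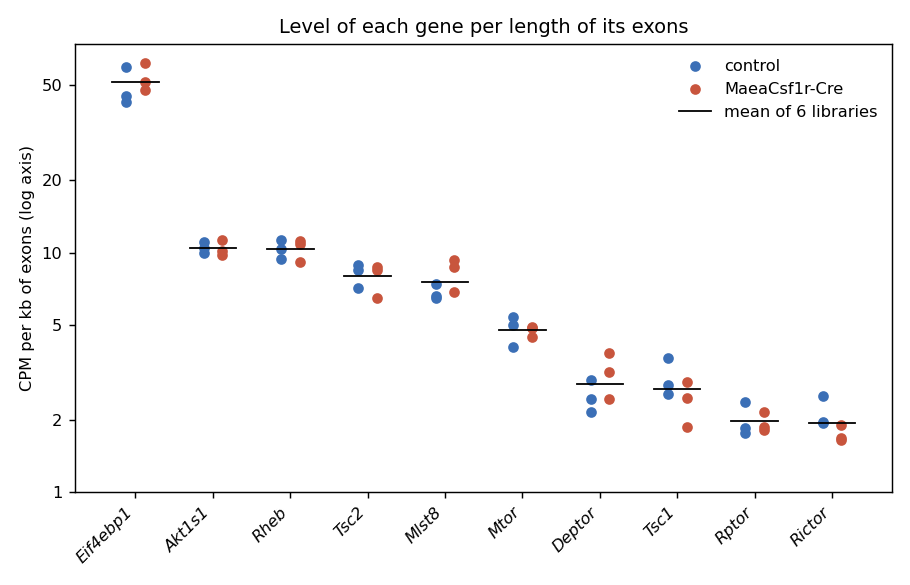
Levels of the 10 members per length, in CPM per kb of merged exons on a log axis, with 1 point per library and a line at the mean of the 6. *Eif4ebp1* lies apart at the top, and *Rptor* and *Rictor* lie at the bottom with overlapping ranges.

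Between the genotypes, 0 of the 10 members passed an adjusted p of 0.05 in limma (Benjamini-Hochberg over 12955 genes). The background was 0.00772% of all genes tested, which is the single gene *BC023719*, named here after its value was seen. At an unadjusted p under 0.05 limma also found 0 of 10 members, against 3.99% of all genes. By mean, 4 members were higher and 6 lower in MaeaCsf1r-Cre, and their median log2 fold change was -0.01, beside -0.06 for all genes tested, of which 7895 were lower. The split turned with the scaling of the libraries, to 8 higher and 2 lower with median-of-ratios scaling and 7 higher and 3 lower with quantile scaling. All fold changes are given on the log2(CPM + 1) scale as MaeaCsf1r-Cre over control. The widest were 0.29 for *Deptor* and -0.31 for *Tsc1*. The groups did not overlap for 1 of 10 members, *Rictor*, which was lower, beside 6.06% of all genes lower without overlap and 2.49% higher, together 8.55%.

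**Figure D2:**
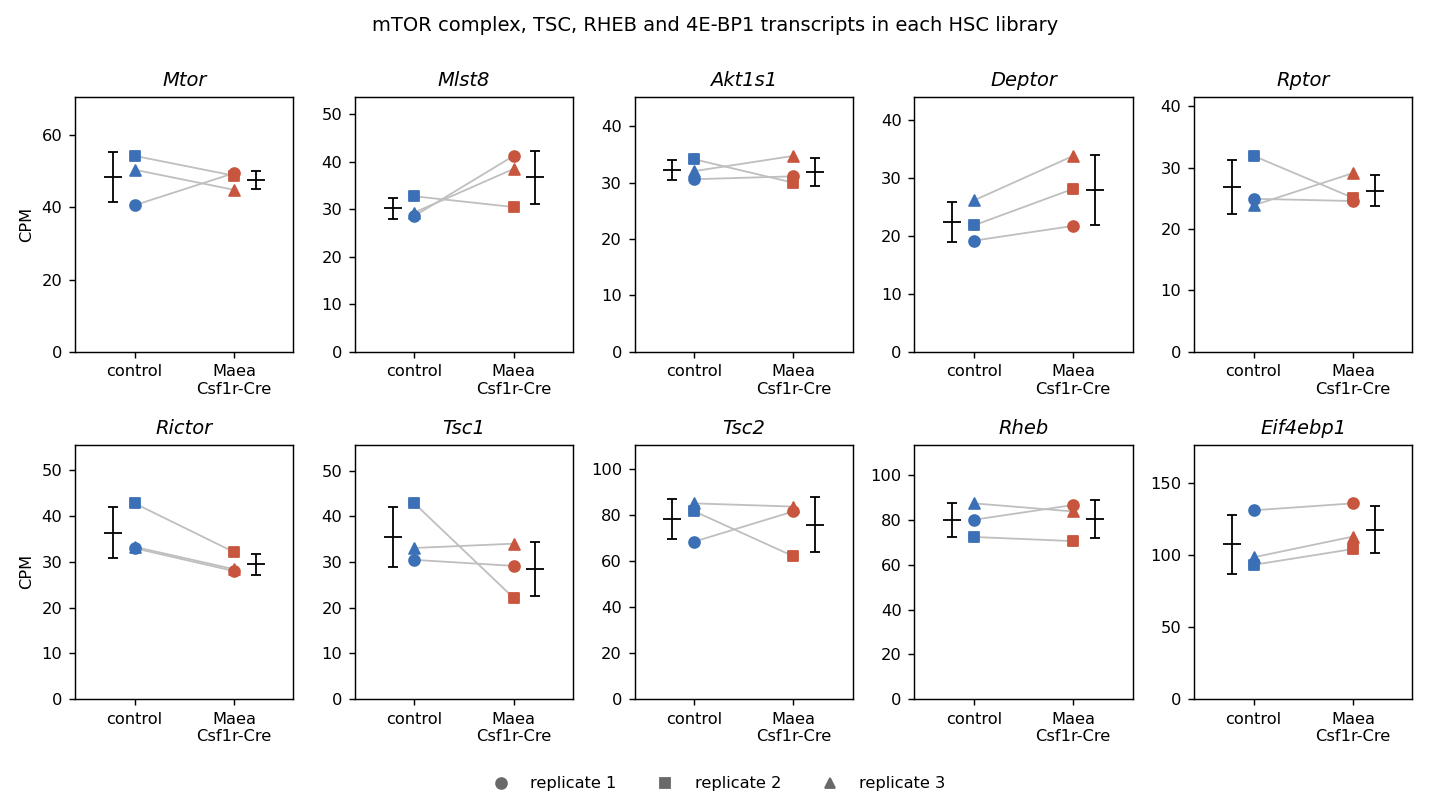
CPM of each member in the 6 libraries, control on the left and MaeaCsf1r-Cre on the right of each panel. Symbols give the replicate number, grey lines join libraries of the same number and black bars are the mean ± SD (n = 3). In the panel of *Rictor* the groups do not overlap, while in the other 9 they do.

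Libraries with the same replicate number deviated together across genes, so the limma test was repeated with the number as a block. The exact test of ratios given below did not use the number. With the block, 2 of 10 members had an unadjusted p under 0.05 in limma, *Deptor* (higher) and *Rictor* (lower), beside 13.9% of all genes, and 0 of 10 passed the adjusted threshold, as before. Within same-numbered pairs, *Deptor* and *Eif4ebp1* were higher in MaeaCsf1r-Cre in 3 of 3, which 13.2% of all genes were, and *Rictor* was lower in 3 of 3, which 23.5% of all genes were.

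**Figure D3:**
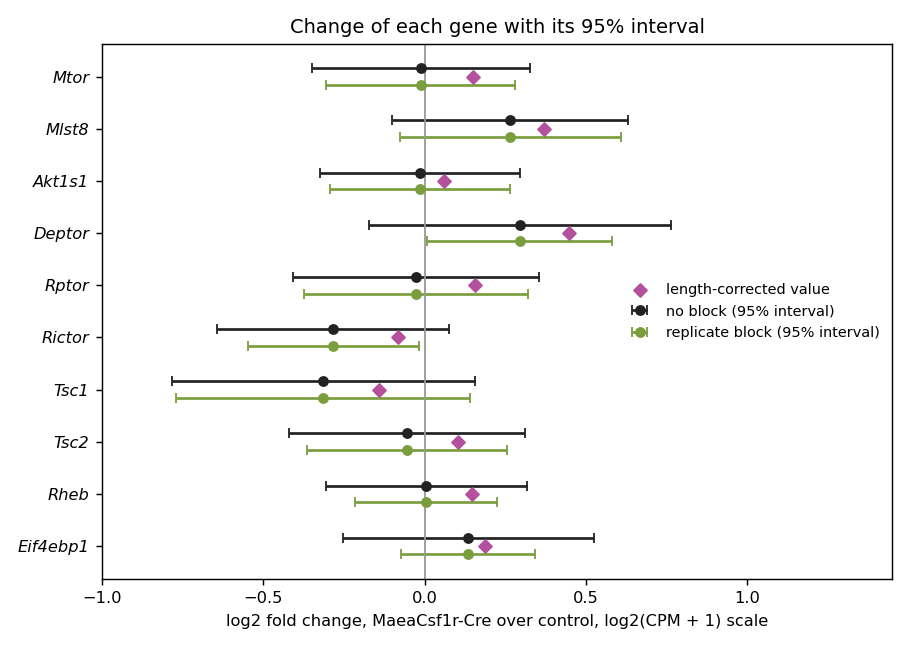
Log2 fold change of each member (MaeaCsf1r-Cre over control, log2(CPM + 1) scale), with the 95% interval of limma without and with the replicate block. Diamonds give the value after correction for merged exon length. Without the block every interval includes 0, and with it the intervals of *Deptor* and *Rictor* do not.

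*Mtor* (chr4:148448611-148557683, GRCm38, + strand) encodes the kinase. It was measured at 40.6, 54.3 and 50.4 CPM in control replicates 1 to 3 and at 49.5, 48.8 and 44.9 CPM in MaeaCsf1r-Cre replicates 1 to 3. The MaeaCsf1r-Cre libraries lay inside the range of the control libraries. The log2 fold change was -0.01 (SE of the coefficient 0.15, adjusted p = 0.995 in limma), and its 95% interval of -0.35 to 0.33 leaves room for a level between 0.785-fold and 1.25-fold of control. The sign of this value turned in some of the alternatives given below, and under none did it pass the threshold.

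*Mlst8* (chr17:24473551-24479078, - strand) encodes the small WD-repeat subunit that binds the kinase domain in both complexes. Its values were 28.6, 32.7 and 29.3 CPM in control and 41.2, 30.4 and 38.5 CPM in MaeaCsf1r-Cre. MaeaCsf1r-Cre replicates 1 and 3 lay above every control library, while replicate 2 lay within the control range. Means were 30.2 ± 2.21 and 36.7 ± 5.60 CPM (SD, n = 3 per genotype), a log2 fold change of 0.27 (SE 0.16, 95% interval -0.10 to 0.63, adjusted p = 0.967 in limma). It was 0.39 without MaeaCsf1r-Cre replicate 2 and 0.18 without MaeaCsf1r-Cre replicate 1. A stretch of 997 bases, 22.5% of the *Mlst8* exons, is shared with exons of *Bricd5* on the opposite strand, and whether reads were counted by strand is not given in the sources used here. *Bricd5* was at most 0.114 CPM in any library.

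*Rptor* (chr11:119602905-119899576, + strand) encodes raptor, which presents substrates to mTORC1. It was at 24.9, 31.9 and 23.9 CPM in control and at 24.6, 25.1 and 29.1 CPM in MaeaCsf1r-Cre. The MaeaCsf1r-Cre libraries lay within the control range, with 26.9 ± 4.38 and 26.3 ± 2.49 CPM (SD, n = 3 per genotype) and a log2 fold change of -0.03 (SE 0.17, 95% interval -0.41 to 0.36).

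The inhibitory subunits differed in pattern. *Akt1s1* (chr7:44848991-44855421, + strand) encodes PRAS40, which blocks mTORC1 until AKT phosphorylates it, and was at 30.6, 34.2 and 32.0 CPM in control and 31.1, 30.0 and 34.8 CPM in MaeaCsf1r-Cre. The groups overlapped, and the log2 fold change was -0.01 (SE 0.13, 95% interval -0.33 to 0.30). *Deptor* (chr15:55112317-55259271, + strand) encodes a protein that binds mTOR and inhibits both complexes. It was at 19.1, 21.8 and 26.1 CPM in control and 21.7, 28.1 and 33.8 CPM in MaeaCsf1r-Cre. Each MaeaCsf1r-Cre library lay above the control library of the same number, but the groups overlapped, since replicate 1 of MaeaCsf1r-Cre lay below replicates 2 and 3 of control. Means were 22.3 ± 3.50 and 27.8 ± 6.04 CPM (SD, n = 3 per genotype), and the log2 fold change was 0.29 (SE 0.20, 95% interval -0.17 to 0.76, adjusted p = 0.967 in limma). With the replicate block the 95% interval was 0.01 to 0.58 and the adjusted p was 0.351 in limma. Without MaeaCsf1r-Cre replicate 3 the log2 fold change was 0.15, and without MaeaCsf1r-Cre replicate 1 it was 0.46.

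*Rictor* (chr15:6708379-6800401, + strand) encodes the scaffold of mTORC2. It was at 32.9, 42.7 and 33.2 CPM in control and at 28.0, 32.1 and 28.4 CPM in MaeaCsf1r-Cre. Every MaeaCsf1r-Cre library lay below every control library, though the highest MaeaCsf1r-Cre value and the lowest control value, 32.1 and 32.9 CPM, were close. Means were 36.3 ± 5.57 and 29.5 ± 2.29 CPM (SD, n = 3 per genotype). The log2 fold change was -0.28 (SE 0.16, 95% interval -0.64 to 0.08), with an unadjusted p of 0.106 and an adjusted p of 0.967 in limma, and with the replicate block an interval of -0.55 to -0.02 and an adjusted p of 0.335. Without control replicate 2, which was the highest, it was -0.16. After correction for merged exon length it was -0.08.

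The sequence before the start of *Rictor* is shown because this was the member whose groups did not overlap. Promoters were taken as the 250 bases before the RefSeq start (GRCm38.p6), which were at hand for 8 of the 10 members, without *Deptor* and *Eif4ebp1*. They were searched on both strands for the GC box GGGCGG, the site that SP1 and related factors can bind, and for the E-box CACGTG, which MYC and TFEB can bind. The GC box was present in 4 of the 8 (*Akt1s1*, *Mtor*, *Rheb* and *Rictor*), beside 32.7% of 32851 promoters, and the E-box in 1 of the 8, *Rheb*, beside 6.02%. The *Rictor* window at chr15:6708131-6708380 (+ strand) was 81.2% G and C and held 4 GC boxes, marked in capitals. These matches are letters in a window, and binding was not measured.

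Rictor promoter: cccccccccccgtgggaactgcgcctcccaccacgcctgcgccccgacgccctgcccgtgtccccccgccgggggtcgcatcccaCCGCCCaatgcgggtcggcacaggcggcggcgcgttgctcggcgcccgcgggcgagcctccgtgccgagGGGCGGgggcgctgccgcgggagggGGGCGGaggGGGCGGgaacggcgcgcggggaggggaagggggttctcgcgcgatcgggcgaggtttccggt

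The remaining mTORC2 subunits on the pathway list were also all lower by mean, 3 of 3, as were 7895 of the 12955 genes tested. Of the 3, 0 passed the adjusted threshold in limma and 0 had an unadjusted p under 0.05, or 1 (*Prr5l*) with the replicate block. All were lower in 3 of 3 same-numbered pairs, which 23.5% of all genes were. They stayed lower, 3 of 3, under both other scalings and after length correction. *Prr5*, which encodes the subunit protor-1, was at 4.19, 7.27 and 5.78 CPM in control and 2.54, 4.55 and 5.10 CPM in MaeaCsf1r-Cre, a log2 fold change of -0.43 (SE 0.28). The other two are named after their values were seen. *Mapkap1* encodes mSIN1, which brings substrates to mTORC2, and was at 51.4, 50.4 and 54.2 CPM in control and 49.1, 46.5 and 47.5 CPM in MaeaCsf1r-Cre. Here too every MaeaCsf1r-Cre library lay below every control library, as for 6.06% of all genes tested. The log2 fold change was -0.12 (SE 0.12), and -0.02 after correction for merged exon length. *Prr5l*, a paralogue of *Prr5*, spread from 2.46 to 10.6 CPM in control and from 1.36 to 6.56 CPM in MaeaCsf1r-Cre, and its groups overlapped. With the block its log2 fold change of -0.65 had a 95% interval of -1.07 to -0.23 and an adjusted p of 0.251 in limma. The proteins found in both complexes did not share this direction. *Mlst8* and *Deptor* were higher by mean, at log2 fold changes of 0.27 and 0.29, and *Mtor* was at -0.01.

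*Tsc1* and *Tsc2* encode the pair whose GTPase-activating function holds RHEB off. *Tsc1* (chr2:28641228-28691167, + strand) was at 30.5, 42.9 and 33.1 CPM in control and 29.2, 22.1 and 34.0 CPM in MaeaCsf1r-Cre. MaeaCsf1r-Cre replicate 2 was the lowest of the 6 libraries and control replicate 2 the highest, and the groups overlapped through MaeaCsf1r-Cre replicate 3. Means were 35.5 ± 6.53 and 28.5 ± 5.98 CPM (SD, n = 3 per genotype), with a log2 fold change of -0.31 (SE 0.20, 95% interval -0.78 to 0.15, adjusted p = 0.967 in limma). Much of it rested on replicate 2, since it was -0.17 without control replicate 2 and -0.15 without MaeaCsf1r-Cre replicate 2. *Tsc2* (chr17:24595816-24632630, - strand) was at 68.4, 81.7 and 85.1 CPM in control and 81.6, 62.1 and 83.7 CPM in MaeaCsf1r-Cre. Again MaeaCsf1r-Cre replicate 2 was the lowest library, and the other two MaeaCsf1r-Cre libraries lay within the control range, at a log2 fold change of -0.05 (SE 0.16, 95% interval -0.42 to 0.31). *Tsc2* shares 693 bases, 7.20% of its exons, with the 3′ end of *Pkd1* on the other strand, which was itself expressed at 38.5 to 76.2 CPM, so reads in that stretch cannot be assigned with certainty.

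*Rheb* (chr5:24802823-24842624, - strand) encodes the GTPase that activates mTORC1 on the lysosome. It was at 80.1, 72.4 and 87.4 CPM in control and 86.7, 70.5 and 83.8 CPM in MaeaCsf1r-Cre. The groups lay on top of each other, at 79.96 ± 7.50 and 80.3 ± 8.60 CPM (SD, n = 3 per genotype), and replicate 2 was the lowest in both. The log2 fold change was 0.01 (SE 0.13, 95% interval -0.31 to 0.32, adjusted p = 0.998 in limma). Its E-box, the only such match among the member promoters, is shown in capitals within 30 bases at chr5:24842440-24842469 (- strand), 96 bases before the RefSeq start and inside the longer gene model of GENCODE.

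Rheb E-box: gccgcgcgcggtCACGTGggtgtgttgttg

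*Eif4ebp1* (chr8:27260329-27276674, + strand) encodes 4E-BP1, which holds the cap-binding protein eIF4E back from translation until mTORC1 phosphorylates it. It was at 131, 93.4 and 98.6 CPM in control and 136, 104 and 113 CPM in MaeaCsf1r-Cre. Replicate 1 was the highest library of each genotype, and each MaeaCsf1r-Cre library lay above the control library of its number while the groups overlapped. Means were 108 ± 20.5 and 118 ± 16.4 CPM (SD, n = 3 per genotype), with a log2 fold change of 0.14 (SE 0.17, 95% interval -0.25 to 0.52, adjusted p = 0.967 in limma). It was 0.028 without MaeaCsf1r-Cre replicate 1 and 0.28 without control replicate 1. Its partner *Eif4e* averaged 228 ± 30.7 CPM in control against 226 ± 31.0 CPM in MaeaCsf1r-Cre (SD, n = 3 per genotype).

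A ratio of members within a library does not depend on how libraries are scaled to each other, so 7 ratios were compared with an exact permutation test over the 20 labellings of the libraries, which cannot go below p = 0.1, two-sided. The ratio of *Rptor* to *Rictor*, the scaffolds of mTORC1 and mTORC2, was 0.757, 0.747 and 0.718 in control and 0.879, 0.781 and 1.03 in MaeaCsf1r-Cre. All MaeaCsf1r-Cre ratios were above all control ratios, by 0.26 on the log2 scale, with an exact p of 0.1 and a Benjamini-Hochberg adjusted value of 0.467 over the 7 ratios. It was the only one of the 7 whose groups did not overlap. The difference was 0.16 without MaeaCsf1r-Cre replicate 3 and 0.24 after correction for merged exon length. The ratio of *Mlst8* to *Mtor* was 0.704, 0.602 and 0.581 in control and 0.833, 0.623 and 0.857 in MaeaCsf1r-Cre. The MaeaCsf1r-Cre library was the higher in 3 of 3 same-numbered pairs, by 0.29 on the log2 scale over the groups, with an exact p of 0.2. The ratio of *Tsc1* to *Tsc2* was 0.445, 0.525 and 0.389 in control and 0.358, 0.357 and 0.407 in MaeaCsf1r-Cre, a log2 difference of -0.27 with an exact p of 0.2. These groups overlapped through MaeaCsf1r-Cre replicate 3 and control replicate 3. *Deptor* to *Mtor* differed by 0.32 on the log2 scale (exact p = 0.3), *Eif4ebp1* to *Eif4e* by 0.15 (exact p = 0.4), *Rheb* to *Tsc2* by 0.06 (exact p = 0.7) and *Akt1s1* to *Mtor* by less than 0.01 (exact p = 0.9). With a library left out, the difference lay between 0.12 (without MaeaCsf1r-Cre replicate 3) and 0.51 (without MaeaCsf1r-Cre replicate 1) for *Deptor* to *Mtor*, and between 0.033 (without control replicate 3) and 0.24 (without control replicate 1) for *Eif4ebp1* to *Eif4e*. The ratio of *Eif4ebp1* to *Eif4e* was nearly the same in the 3 MaeaCsf1r-Cre libraries, 0.510 to 0.530, and spread from 0.400 to 0.536 in control.

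**Figure D4:**
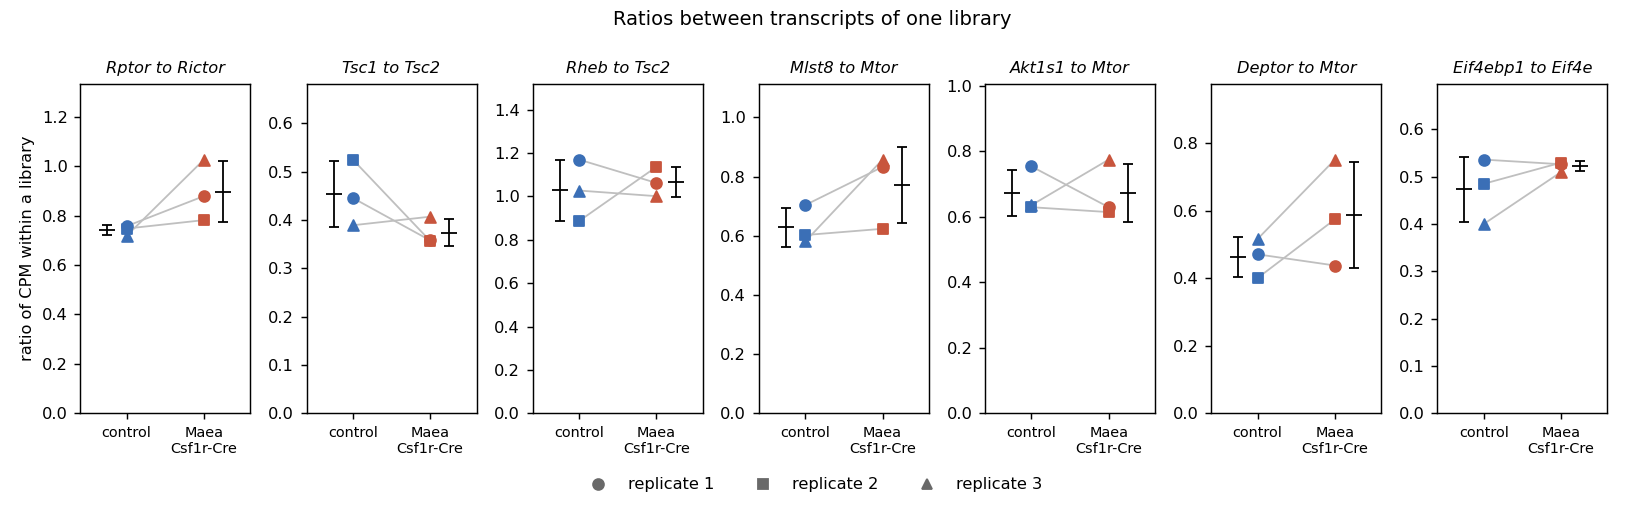
Ratios of CPM between members within each library (linear axis from 0), control on the left and MaeaCsf1r-Cre on the right of each panel, with 1 symbol per replicate, grey lines between libraries of the same number and bars for the mean ± SD (n = 3). In the panel of *Rptor* to *Rictor* the groups do not overlap.

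Most members have 8 kb or more of merged exons, and fold changes in these libraries moved with this length. Among genes with 8 kb or more of merged exons the median log2 fold change was -0.14 (2058 genes, 6 of them members), between 2 and 8 kb it was -0.06 (8124 genes, 4 members), and below 2 kb it was 0.04 (2291 genes, 0 members). The 6 members with 8 kb or more are *Mtor*, *Deptor*, *Rptor*, *Rictor*, *Tsc1* and *Tsc2*. By longest transcript *Rptor*, *Tsc1* and *Tsc2* are shorter than that, at 6.59, 7.70 and 6.27 kb. When the trend with length was subtracted in each library, the median of the 10 members was 0.15, beside 0.03 for all genes. The value of *Rictor* then lay at -0.08 and that of *Tsc1* at -0.14, while *Deptor* lay at 0.45 and *Mlst8* at 0.37. *Deptor* and *Mlst8*, 2 of 10 members, then had an unadjusted p under 0.05 in limma, beside 3.44% of all genes with a length, and 0 of 10 members passed the adjusted threshold. What moved with length in the libraries was not tested.

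The libraries also carried patterns shared by several members. In control replicate 2, 4 members had their highest value (*Mtor*, *Rptor*, *Rictor* and *Tsc1*), and in MaeaCsf1r-Cre replicate 2, 4 members had their lowest (*Akt1s1*, *Tsc1*, *Tsc2* and *Rheb*). Of the 10 members, 8 lay above their own 6-library mean in MaeaCsf1r-Cre replicate 3 and 2 in MaeaCsf1r-Cre replicate 2. The median SD between libraries of a group was 0.18 on the log2 scale for the members and 0.24 for all genes tested. The latter include many genes at lower levels than any member, so these values are not matched for level.

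The members were then set beside the rest of the pathway, 73 further genes on a list, of which 71 were found in the table and 68 passed the filter. By mean, 29 were higher and 39 lower in MaeaCsf1r-Cre, a split that turned to 35 and 33 with median-of-ratios scaling and to 42 and 24 of 66 after length correction. Their median log2 fold change was -0.05, and 0 of 68 passed the adjusted threshold in limma with or without the replicate block. An unadjusted p under 0.05 was found for 0 higher and 4 lower genes, 5.88% of the list beside 3.99% of all genes, and with the block for 7, 10.3% beside 13.9%. The groups did not overlap for 6, all lower, 8.82% of the list beside 6.06%.

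Several of the larger differences on the list lay upstream of the complexes, beside that of the mTORC2 gene *Prr5l* given above. *Sesn1*, which encodes the leucine sensor sestrin 1, was at 87.0, 109 and 88.6 CPM in control and 46.6, 54.3 and 79.0 CPM in MaeaCsf1r-Cre, a log2 fold change of -0.68 (SE 0.20, adjusted p = 0.967 in limma). *Prkaa2*, which encodes a catalytic subunit of the energy sensor AMPK, was at 2.91, 3.74 and 4.38 CPM in control and 1.49, 2.33 and 1.20 CPM in MaeaCsf1r-Cre, a log2 fold change of -0.82 (SE 0.25). The other catalytic subunit on the list, *Prkaa1*, is named after its values were seen. It was far more abundant, at 61.7 ± 13.4 CPM in control and 62.6 ± 14.6 CPM in MaeaCsf1r-Cre, a log2 fold change of 0.02 (SE 0.21). *Grb10*, an adaptor and mTORC1 substrate that dampens insulin signalling, was at 63.2, 70.7 and 88.6 CPM in control and 43.2, 47.7 and 63.0 CPM in MaeaCsf1r-Cre, a log2 fold change of -0.53 (SE 0.19). For *Sesn1*, *Prkaa2* and *Grb10* every MaeaCsf1r-Cre library was below every control library. The same held for *Fnip1*, a partner of folliculin in the control of the Rag GTPases. It was at 15.8 ± 0.947 and 12.8 ± 1.69 CPM (SD, n = 3 per genotype). Its log2 fold change was -0.30 (SE 0.17), and -0.16 after correction for merged exon length. *Sesn3*, a relative of *Sesn1* named after its values were seen, averaged 5.48 ± 1.93 CPM in control against 3.57 ± 1.76 CPM in MaeaCsf1r-Cre (SD, n = 3 per genotype), with a log2 fold change of -0.54 (SE 0.35) and groups that overlapped. *Sesn2*, the other relative on the list and also named after its values were seen, was at 17.6 ± 2.59 and 16.7 ± 2.75 CPM. Its log2 fold change was -0.07 (SE 0.19).

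The units that bring mTORC1 to the lysosome lay closer to 0, and their counts by direction shifted with the scaling. Of the 5 Ragulator genes 3 were higher and 2 lower by mean (5 and 0 with median ratios), with *Lamtor4* at 18.7 ± 1.95 and 21.3 ± 1.87 CPM. Of the 3 Rag GTPase genes tested 1 was higher and 2 lower, with *Rragc* at 73.9 ± 8.11 and 66.4 ± 6.40 CPM. Of the GATOR2 genes, which relieve the brake on the Rag GTPases, 4 of 5 were higher by mean, and *Sec13* was at 106 ± 16.2 and 114 ± 17.6 CPM. The brake itself, GATOR1 with its KICSTOR anchor, had 1 higher and 5 lower genes of 6 (4 and 2 after length correction), with *Nprl3* at 20.4 ± 1.26 and 18.1 ± 4.58 CPM and *Itfg2* at 26.8 ± 2.24 and 24.5 ± 6.79 CPM. None of these passed the test in limma in either direction, at the adjusted or the unadjusted threshold. *Tbc1d7*, the remaining subunit of the TSC complex, was at 15.9 ± 1.75 and 14.0 ± 2.54 CPM, below control in 3 of 3 same-numbered pairs, and its groups overlapped. *Telo2*, which helps assemble mTOR, was at 42.0 ± 4.62 and 47.4 ± 5.43 CPM.

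Downstream of mTORC1, 0 genes passed the adjusted or the unadjusted threshold in limma. *Rps6kb1*, the S6 kinase, averaged 38.4 ± 1.67 CPM in control against 38.7 ± 6.33 CPM in MaeaCsf1r-Cre. Its substrate *Rps6* was at 188 ± 13.3 and 185 ± 23.2 CPM, and *Eef2k*, a kinase that S6 kinase holds back, at 126 ± 27.0 and 111 ± 20.6 CPM. *Eif4ebp2*, the paralogue of *Eif4ebp1*, was at 81.0 ± 9.55 and 76.6 ± 7.39 CPM, while *Eif4ebp3* was at most 0.114 CPM and fell below the filter. The highest log2 fold change there was that of *Atf4*, a transcription factor whose translation mTORC1 promotes, at 44.3, 60.8 and 55.6 CPM in control and 72.7, 79.8 and 53.1 CPM in MaeaCsf1r-Cre. MaeaCsf1r-Cre replicates 1 and 2 lay above every control library and replicate 3 within them, a log2 fold change of 0.34 (SE 0.19, adjusted p = 0.967 in limma). Named after their values were seen, *Tfeb*, a regulator of lysosomal genes that mTORC1 holds in the cytoplasm, had a log2 fold change of -0.34 (SE 0.30) and was lower in 3 of 3 same-numbered pairs, and *Sgk1*, a kinase activated by mTORC2, had one of 0.28 (SE 0.31). The groups overlapped for both.

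**Figure D5:**
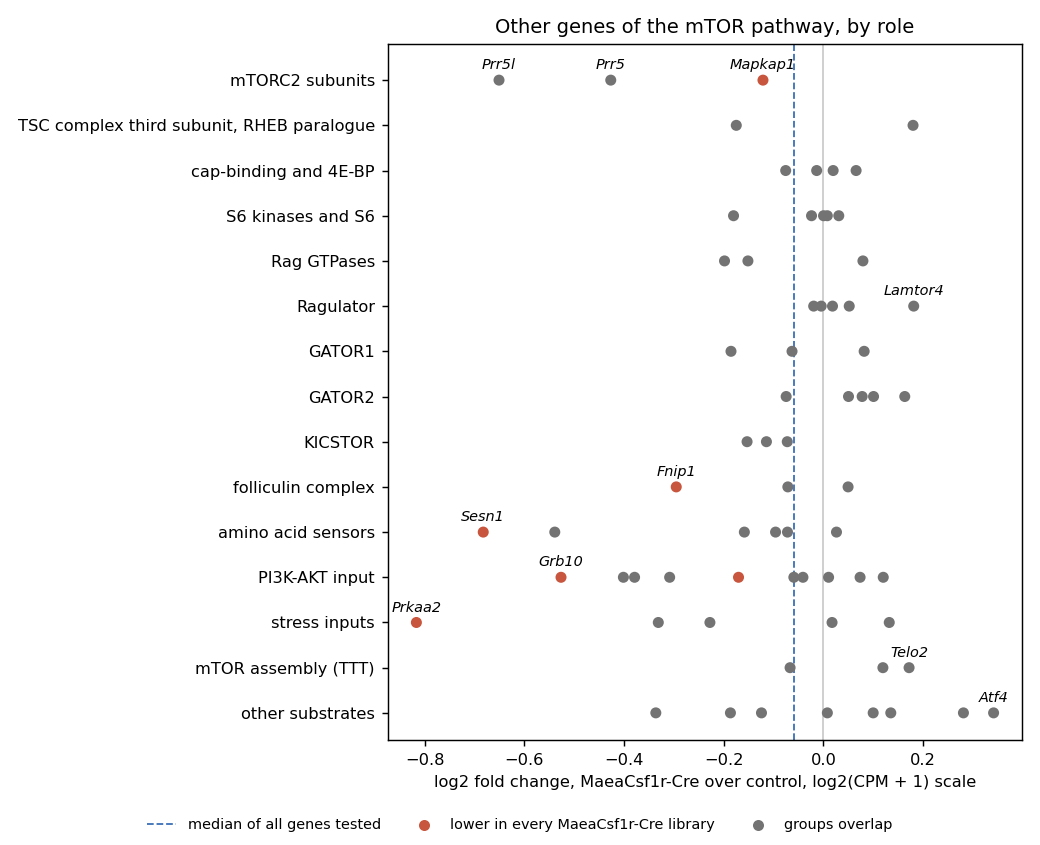
Log2 fold changes (MaeaCsf1r-Cre over control, log2(CPM + 1) scale) of the other mTOR pathway genes, 1 point per gene and 1 line per role, with the median of all genes tested as a dashed line. Red points are the 6 genes whose MaeaCsf1r-Cre values all lay below the control values, among them *Prkaa2*, *Sesn1*, *Grb10*, *Fnip1* and *Mapkap1*.

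Among 8424 protein-coding genes with a mean of at least 10 CPM, the genes whose course over the 6 libraries was most like that of *Mtor* were *Phgdh*, an enzyme of serine synthesis, *Morc2a* and *Herc2*. Their root-mean-square differences from *Mtor* on the centred log2 scale were 0.0191, 0.0290 and 0.0368, where the median gene was at 0.236. For *Tsc1*, the member with the largest difference, they included *Golga4* at 0.0677 and *Pik3ca*, the catalytic subunit of PI3-kinase alpha, at 0.0753, with a median of 0.303. With 6 libraries and this many candidates such likeness is a description only. The nearest member to *Mtor* was *Akt1s1* at 0.133 and the nearest to *Tsc1* was *Tsc2* at 0.188, and 3 of the 9 other members were farther from *Mtor* than the median gene, *Tsc1* at 0.268, *Deptor* at 0.286 and *Eif4ebp1* at 0.303.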

How the data were processed

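RNA of 3 control and 3 MaeaCsf1r-Cre libraries of sorted HSCs (lineage- Sca-1+ c-Kit+ CD150+ CD48-) was analysed. Per the labels and the study's methods, the authors prepared SMART-Seq v4 and Nextera XT libraries, trimmed reads with Trim Galore, aligned them with STAR 2.5.3a to mm10 and used Partek Flow for quantification and normalisation. Deposited values are CPM, raised by 0.0001. Of low values, 74.2% to 80.4% lay within 0.05 of a whole read, so counts were not recovered and no count test was run. Depth was read from these steps, 3 reads being 0.0493 to 0.0911 CPM, and covers counting error only.

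Genes reaching 1 CPM in 3 or more libraries entered the test, on log2(CPM + 1) with limma 3.58.1 (moderated test with trend, two-sided, Benjamini-Hochberg over 12955 genes, threshold 0.05) in R 4.3.3. Fold changes on this scale understate those of low genes. Replicates come from separate pools of mice. Libraries with the same number moved together over the genes (r = 0.627, 0.523 and 0.397 for numbers 1, 2 and 3), the labels not saying why, so fits with the number as a block are given where a count moved. Exon lengths came from GENCODE M21, a later annotation than the authors' Ensembl release, and promoters from RefSeq. Python 3.11.15 with numpy 2.4.6, pandas 2.3.3 and matplotlib 3.10.9 did the rest. The limma procedure was tested on simulated data.

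The members and lists were chosen with earlier results of these data known. Named were all members, *Maea*, the pathway gene with the smallest p of each role, *Eif4e*, *Rps6* and *Rps6kb1*, and the 3 genes most like *Mtor* and *Tsc1*, of which 1 is not reported here. *Csf1r*, also on the list, was at 2.31 to 7.89 CPM in control and 0.141 to 2.18 CPM in MaeaCsf1r-Cre. Other marker sums overlapped between groups: neutrophil 27.8 to 219 and 4.58 to 114 CPM, B cell 17.0 to 28.0 and 13.6 to 24.7 (*Pax5* and *Igll1* at 0), T cell 1.58 to 3.16 and 0.272 to 1.58 (*Cd3g* and *Cd8a* at 0), erythroid 141 to 382 and 156 to 361, megakaryocyte 195 to 933 and 272 to 562. Alternatives were 0.1 as the pseudocount, dropping the filter, raising it to 10 CPM, median-of-ratios and quantile scaling, the block, no trend, correction for exon length by a loess curve (span 0.5, 12473 genes), alone and with the block, and each library left out.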

Additional observations from a re-analysis of the deposited data

How the results depend on the processing

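Under every alternative run, 0 members and 0 other pathway genes passed the adjusted threshold in limma. The values of *Mlst8*, *Deptor*, *Rictor*, *Tsc1* and *Eif4ebp1* kept their sign throughout. The log2 fold change of *Mtor* turned to 0.049 with median-of-ratios scaling, 0.016 with quantile scaling and 0.15 with length correction, that of *Akt1s1* to 0.046, 0.046 and 0.060, that of *Rptor* to 0.034, 0.050 and 0.16, and that of *Tsc2* to 0.0073 with median ratios and 0.10 with length correction, the length-corrected values being the same with the replicate block. With a library left out, *Mtor* lay between -0.13 and 0.074, *Akt1s1* between -0.075 and 0.028, *Rptor* between -0.10 and 0.098, *Tsc2* between -0.15 and 0.081 and *Rheb* between -0.063 and 0.095. In all, 29 of 150 such values turned and 121 did not. The cause was not tested.

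The members' median was 0.15 with length correction, with or without the block, and -0.06 to 0.05 with a library left out. The median of all genes was 0.00 with median ratios and 0.02 with quantile scaling. Of all genes, 0 were called with a filter at a CPM of 10, where 302 had an unadjusted p under 0.05, 12 with length correction and the block, and 0 to 3 with a library left out (0 without control replicate 2 or control replicate 3, 3 without MaeaCsf1r-Cre replicate 3). The replicate block changed no adjusted call on uncorrected values, and moved the counts at an unadjusted p under 0.05 from 517 to 1805 for all genes, from 0 to 2 for members and from 4 to 7 for other pathway genes. Of the 7 ratios, 1 to 3 did not overlap with a library left out. By longest transcript, 4 of 10 members kept their place.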
